A study of Rattus norvegicus with 123 samples.

Results

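The transcript described here is the probe set for ENSRNOT00000017310 on a rat liver array. It is 1 of 22470 distinct probe sets, after 640 of the 23110 deposited rows were left out as copies of another row, and it has no copy among them. It was chosen from measured values: its fall under high-dose methapyrilene was the largest of any transcript in the 17 treated groups, and it also fell under cyproterone acetate in the groups named M. The values of those comparisons are therefore given as a description, without a test. The log2 change that chose it was -8.44, and the next largest fall of another transcript, in the same comparison, was -8.15. The reference gene table, with 47357 genes of assembly GRCr8, paired 0 of the 23110 identifiers with a symbol. No gene name, position, role or sequence is therefore given for it or for the other transcripts below.

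Frozen liver of Han Wistar rats, described as adult males throughout, was profiled with Affymetrix RaGene 2.0 ST chips. Compound or vehicle was gavaged daily for 14, 28 or 90 d, and animals were killed a day after the last dose. The labels mark 112 arrays in 29 groups as of good quality, and these were used. The other 11 were not. Methapyrilene HCl groups received 30 mg/kg for 14 d (3 arrays), 100 mg/kg for 14 d (3) or 30 mg/kg for 28 d (3). A dose of 600 mg/kg piperonyl butoxide lasted 14 d (3) or 28 d (3). Controls of both compounds received carboxymethylcellulose for 14 d (3) or 28 d (3) and carry the letter C (set C, and likewise for the other letters). Cyproterone acetate, 100 mg/kg for 14 or 28 d, went to groups named M and to groups named F (4 arrays each). Their corn oil controls carry the letter D, without and with an added F (4 each). Wy-14643, 60 mg/kg for 28 d (5), has carboxymethylcellulose controls with the letter B (5), and 1,4-dichlorobenzene, 600 mg/kg for 28 d (4), has corn oil controls with the same letter (4). The phenobarbital dose was 80 mg/kg, for 14 d (3), 28 d (5) or 90 d (3), with carboxymethylcellulose controls of letter A (5, 5 and 4). Pioglitazone, 16 mg/kg (3) or 63 mg/kg (5), and rosiglitazone, 10 mg/kg (3), each for 28 d, share water controls of letter E (5). The labels name the control group of every treated group. Their doses are in mg/kg, although group names read ppm. They explain neither the letters A to E nor F and M, and they describe male animals throughout, so the letters serve as names only. Whether that description holds for the F groups was not tested. Whether each array is a different animal is not stated, so p-values measure the spread between arrays. Several suppliers and laboratories are mentioned without being tied to groups.

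As background, methapyrilene is an antihistamine that injures rat liver, and cyproterone acetate is a steroid that blocks the androgen receptor and acts as a progestin. Wy-14643 activates the nuclear receptor PPARalpha, which switches on fatty acid oxidation in rodent liver. Phenobarbital acts through the receptor CAR and induces drug-metabolising enzymes, and pioglitazone and rosiglitazone are thiazolidinediones that activate PPARgamma. Rat liver is also known for transcripts whose level depends on sex and on pituitary growth hormone.

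In most groups the transcript was among the brightest on the array. Over the 42 arrays of the 10 control groups not named F, its log2 level lay between 12.24 and 12.83, and the group means between 12.40 and 12.63. On each of these arrays its value was above at least 99.5% and at most 99.8% of all transcripts. In these control groups the SD was 0.03 to 0.17 (n = 3 to 5). By contrast, 19 arrays lay at or below 5.27, and no array lay between 5.27 and 8.31. These 19 arrays were the 3 at 100 mg/kg methapyrilene and the 16 of the 4 F groups. The files hold no detection call, so whether the low values exceed background was not determined. In whole liver, fewer cells of a type and less RNA per cell cannot be told apart. Cell type markers could not be checked, since no identifier could be paired with a symbol.

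Ordered by mean, the groups ran from 3.75 in F corn oil controls at 14 d to 12.76 in the phenobarbital group at 14 d. Of the 28 pairs of neighbours in this order, 26 had overlapping arrays. With so few arrays per group a single array can decide an overlap, so overlap does not show that neighbours are alike. How many of all transcripts had groups without overlap was not computed, so lack of overlap, here and below, only describes this transcript. The first break separated cyproterone acetate in F at 14 d, with a highest array of 5.26, from cyproterone acetate in M at 14 d, with a lowest array of 8.52. The second, much narrower, lay between 30 mg/kg methapyrilene at 28 d, highest 11.73, and at 14 d, lowest 11.86. Between both breaks stood cyproterone acetate in M at 14 d (mean 9.41), Wy-14643 (10.06), cyproterone acetate in M at 28 d (10.72) and methapyrilene 30 mg/kg at 28 d (11.45). Spread also differed between groups: 5 groups had an SD of 0.80 to 1.24, and the other 24 had an SD of at most 0.42. The linear model uses 1 SD for all groups, 0.45 for this transcript, so its intervals do not follow the spread of each group.

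**Figure D1:**
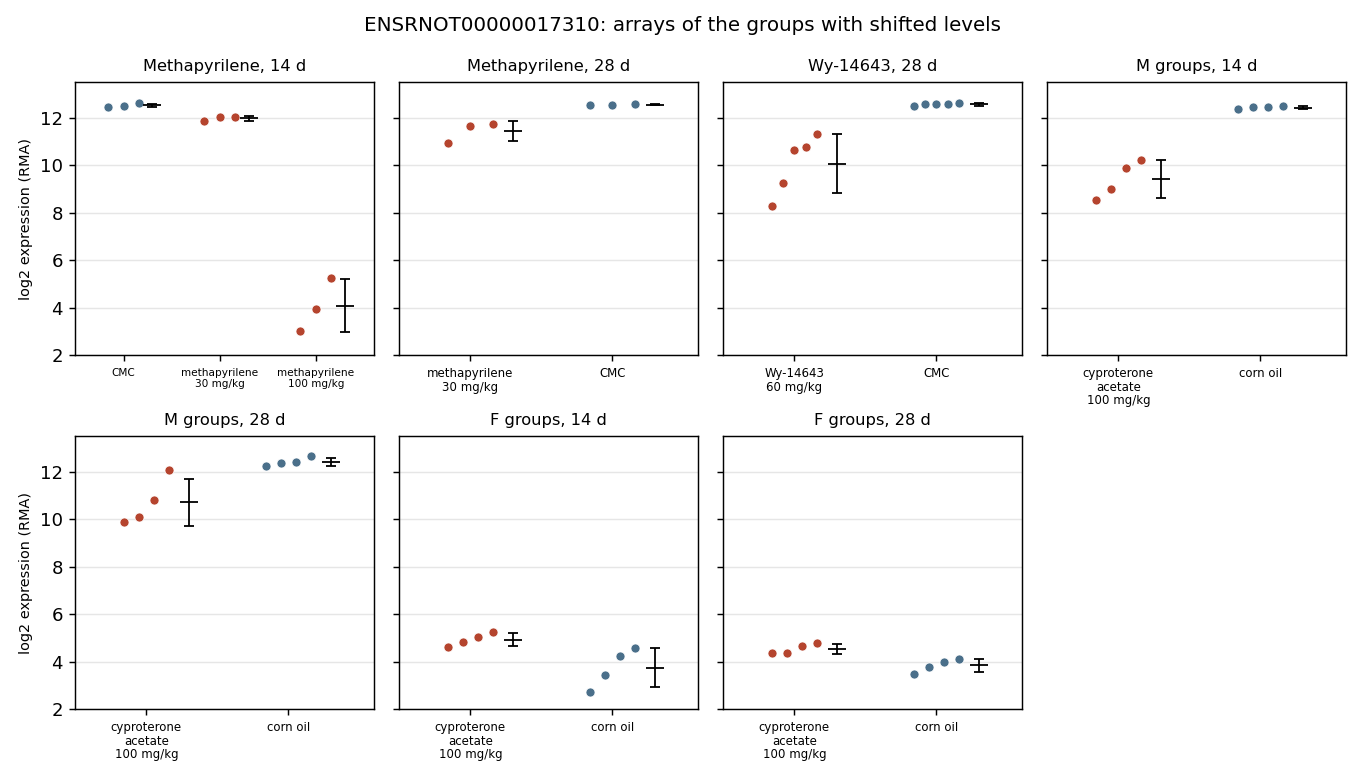
Log2 expression of ENSRNOT00000017310 (vertical axis) on each array of the methapyrilene, Wy-14643 and cyproterone acetate groups (red points) and their controls (blue points; CMC is carboxymethylcellulose), with the group mean and SD as black bars and points ordered by value within a group. The 3 arrays at 100 mg/kg methapyrilene and all arrays of the F groups lie at or below 5.27, while the Wy-14643 arrays spread from 8.31 to 11.32.

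With methapyrilene for 14 d, the level was lower at each higher dose. The 3 vehicle arrays were at 12.47, 12.49 and 12.61, those at 30 mg/kg at 12.06, 11.86 and 12.03, and those at 100 mg/kg at 3.95, 3.03 and 5.27. The 3 dose groups did not overlap. At 100 mg/kg the transcript averaged 4.08 ± 1.13 and in vehicle controls 12.53 ± 0.08 (SD, n = 3 each), a log2 change of -8.44 (SE 0.37), or 348-fold on the scale of these values. Its place within the array moved with it, to the 14.3 to 45.6 percentile at 100 mg/kg, against 99.6 to 99.7 in controls. Array medians were also higher at 100 mg/kg, 5.63 to 5.64 against 5.49 to 5.51 in controls, and with every array centred on its median, which moved the median change of all transcripts by -0.13, the change was -8.58. At 30 mg/kg and 14 d the log2 change was -0.54 (SE 0.37). That comparison uses the same 3 controls and was not tested either.

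At 28 d the same low dose of methapyrilene could be tested on arrays that had no part in the choice. Arrays at 30 mg/kg were at 11.73, 10.96 and 11.65, against 12.59, 12.53 and 12.54 in controls, without overlap. Treated arrays averaged 11.45 ± 0.42 and controls 12.55 ± 0.03 (SD, n = 3 each). The transcript fell by 1.11 on the log2 scale (SE 0.37, 95% interval -1.84 to -0.38, limma adjusted p = 0.0394), to 46.4% of the control level. Of all transcripts, 9.43% passed in this comparison, and by size this fall ranked 79. The call was not kept in 2 other fits, with only the groups of control set C (limma adjusted p = 0.0823) and with only the groups compared (0.113). Without 1 array, the change was lost to the test for each of the 3 controls (limma adjusted p = 0.0878 to 0.0942) and for treated replicates 2 (change -0.86, adjusted p = 0.268) and 3 (adjusted p = 0.0672). An exact permutation test of 3 against 3 cannot go below p = 0.1, which it reached (0.171 after adjustment over 12 comparisons). The change at 28 d minus that at 14 d was -0.56 (SE 0.52), a description, since the 14 d controls entered the choice.

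Under cyproterone acetate the M groups had lower levels than their controls on both days, which was part of the choice. At 14 d the treated arrays were at 8.52, 9.91, 8.98 and 10.24, against 12.48, 12.37, 12.47 and 12.44 in corn oil controls. At 28 d they were at 10.82, 12.08, 10.10 and 9.90, against 12.38, 12.41, 12.65 and 12.24. On neither day did the groups overlap. The log2 change was -3.02 at 14 d and -1.70 at 28 d (SE 0.32 each, n = 4 each), and the smaller fall at 28 d differed from that at 14 d by 1.32 (SE 0.45). On treated M arrays the transcript stayed above at least 87.6% of all transcripts of the same array. Without replicate 2, the highest array, the 28 d change was -2.15, and the difference between the days was 0.87.

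In the F groups the transcript was low in the controls already. All F arrays had it at the 8.9 to 47.7 percentile, where whether values exceed background was not determined. Treated arrays at 14 d were at 5.02, 5.26, 4.62 and 4.84, against 4.23, 4.58, 3.45 and 2.74 in F controls. At 28 d treated arrays were at 4.78, 4.66, 4.37 and 4.37, against 3.77, 4.12, 4.00 and 3.49. Treated and control arrays did not overlap at 14 or at 28 d. At 14 d the transcript rose by 1.18 on the log2 scale (SE 0.32, 95% interval 0.55 to 1.81, limma adjusted p = 0.00492, n = 4 each), in a comparison where 13.7% of all transcripts passed. The rise did not pass without control replicate 4, the lowest array (change 0.85, limma adjusted p = 0.0867), or with only the groups compared (limma adjusted p = 0.0611). At 28 d the change of 0.70 (SE 0.32, 95% interval 0.07 to 1.33) did not pass (limma adjusted p = 0.139), where 15.2% of transcripts did. With only the groups compared it passed (limma adjusted p = 0.0208). Exact two-sided permutation tests gave p = 0.0286 at each day, the smallest that 4 against 4 allows, and 0.0686 after adjustment over the 12 treatment comparisons. The changes at 28 and 14 d differed by -0.48 (SE 0.45, 95% interval -1.38 to 0.41, limma adjusted p = 0.999), where 0.0089% of transcripts passed.

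F controls stood far below the controls without that letter. The difference, F minus the set D controls without the letter, was -8.69 at 14 d and -8.58 at 28 d (SE 0.32 each). Of all transcripts, 7.92% passed in this comparison at 14 d and 7.69% at 28 d. For this transcript the difference is a description, since those set D controls entered the choice. Corn oil controls of set B, which did not, allowed a test at 28 d, although set and letter cannot be told apart in it. Their high level still goes with the choice, since a large fall needs controls that start high. The test is therefore no independent check of that high side. F controls averaged 3.85 ± 0.28 and set B controls 12.40 ± 0.14 (SD, n = 4 each), a difference of -8.55 (SE 0.32, limma adjusted p = 1.23e-40), and 12.5% of all transcripts passed. The exact permutation test of this value gave p = 0.0286, the smallest possible, and 0.171 after adjustment over 6 comparisons of control groups. The level under 100 mg/kg methapyrilene, 3.03 to 5.27, overlapped the range of the F controls, 2.74 to 4.58. F controls of 28 and 14 d differed by 0.09 (SE 0.32, limma adjusted p = 0.999). In that comparison limma called 0 of 22470 transcripts, with 863 at an unadjusted p under 0.05.

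Wy-14643 gave the largest fall among the comparisons that had no part in the choice and tested a compound. The 5 treated arrays were at 8.31, 10.65, 9.26, 11.32 and 10.78, against 12.64, 12.60, 12.58, 12.58 and 12.48 in controls. Every treated array was below every control, and the treated arrays lay far more apart than the controls. Treated arrays averaged 10.06 ± 1.24 and controls 12.58 ± 0.06 (SD, n = 5 each). The transcript fell by 2.51 (SE 0.28, 95% interval -3.08 to -1.95, limma adjusted p = 4.81e-12), to 17.5% of the control level. In this comparison 24.3% of all transcripts passed, and by size this fall ranked 29. The SE rests on the SD shared by all groups, which is smaller than that of the treated arrays. With only the groups of control set B the SE was 0.38 (limma adjusted p = 7.25e-05). With only the groups compared it was 0.46 (limma adjusted p = 0.0021). The exact permutation test gave p = 0.00794, the smallest that 5 against 5 allows, and 0.0476 after adjustment over 12 comparisons. The SD among treated arrays was larger than that of 99.9% of transcripts in the same 5 arrays, whose median SD was 0.18. In the controls its SD was larger than that of 2.56%.

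**Figure D2:**
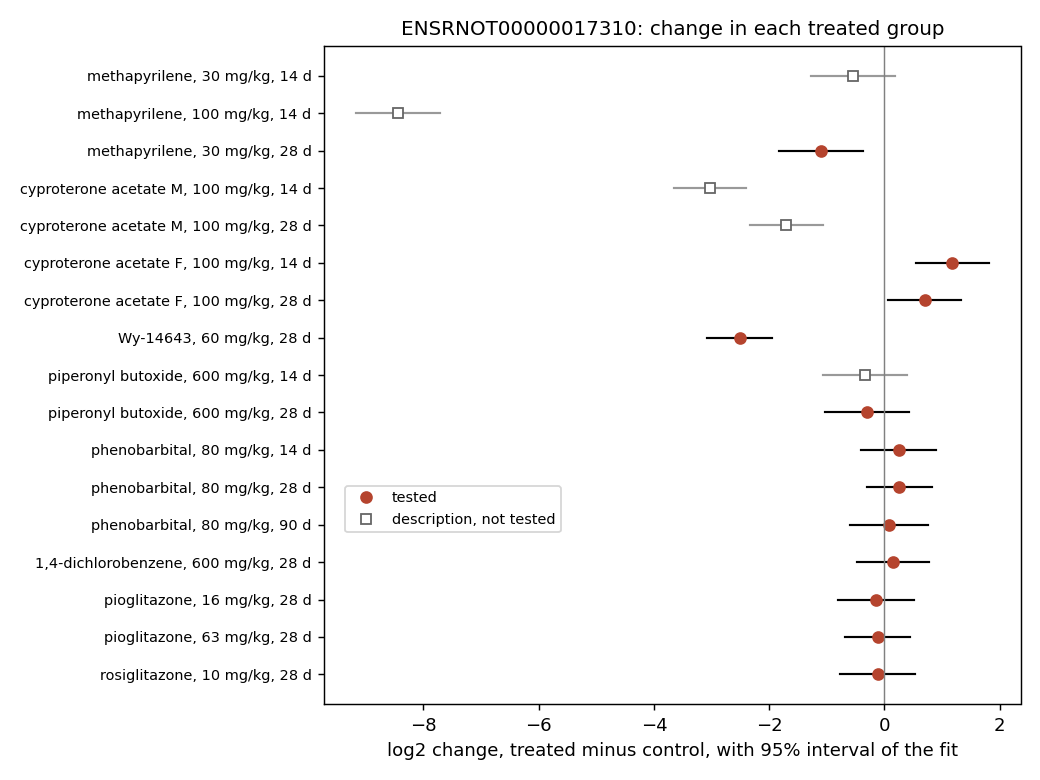
Log2 change of ENSRNOT00000017310 in each of the 17 treated groups against its control (horizontal axis), with the 95% interval of the fit, grouped by compound. Filled circles are tested comparisons, and open squares are descriptions, which the choice of the transcript used or which share its controls. Falls ran to -8.44 at 100 mg/kg methapyrilene, and the changes above 0 are those of the F groups, phenobarbital and 1,4-dichlorobenzene.

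Piperonyl butoxide, which inhibits cytochrome P450 enzymes, gave arrays below their controls on both days, by amounts that did not pass or were not tested. At 14 d treated arrays were at 11.89, 12.34 and 12.37, against 12.47, 12.49 and 12.61 in controls, a log2 change of -0.33 (SE 0.37). It was not tested, since those controls entered the choice. At 28 d treated arrays were at 12.43, 12.39 and 11.94, against 12.59, 12.53 and 12.54, again without overlap. The exact permutation test gave p = 0.1, the smallest that 3 against 3 allows, and 0.171 after adjustment over 12 comparisons. The change of -0.30 (SE 0.37, 95% interval -1.03 to 0.43) did not pass (limma adjusted p = 0.686), where 10.6% of transcripts did. It differed from that of 30 mg/kg methapyrilene at 28 d, which has the same controls, by 0.81 (SE 0.37, limma adjusted p = 0.112). That difference passed for 18.9% of transcripts.

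Phenobarbital at 14 and 28 d had the highest group means of the series. At 14 d the treated arrays were at 12.93, 12.65 and 12.70, against 12.50, 12.56, 12.55, 12.41 and 12.52 in controls. At 28 d they were at 12.82, 12.82, 12.61, 12.57 and 12.70, against 12.36, 12.54, 12.41, 12.51 and 12.41. At 90 d they were at 12.68, 12.46 and 12.60, against 12.67, 12.52, 12.39 and 12.44. Treated and control arrays were apart at 14 and 28 d and overlapped at 90 d. The log2 changes of 0.25 (SE 0.33), 0.26 (SE 0.28) and 0.08 (SE 0.34) did not pass in limma (adjusted p = 0.815, 0.821 and 0.974), where 1.44%, 1.23% and 1.98% of transcripts did. In the fit of control set A alone the SEs of these changes were smaller, at 0.09, 0.08 and 0.09. They did not pass there either (limma adjusted p = 0.27, 0.181 and 0.86). The exact permutation test, which takes the spread from the groups compared alone, gave p = 0.0179, 0.00794 and 0.371, or 0.0686, 0.0476 and 0.371 after adjustment over 12 comparisons. The effects did not differ detectably between days. The differences were 0.0045 between 28 and 14 d (SE 0.43), -0.18 between 90 and 28 d (SE 0.45) and -0.17 between 90 and 14 d (SE 0.47). Their limma adjusted p-values were 0.956 to 0.999, where 0.0712%, 0.00445% and 0.102% of transcripts passed. These SEs rest on the SD shared by all groups. With only the groups of control set A the SEs were 0.12, 0.12 and 0.13. The differences did not pass there either (limma adjusted p = 0.784 to 0.9995).

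**Figure D3:**
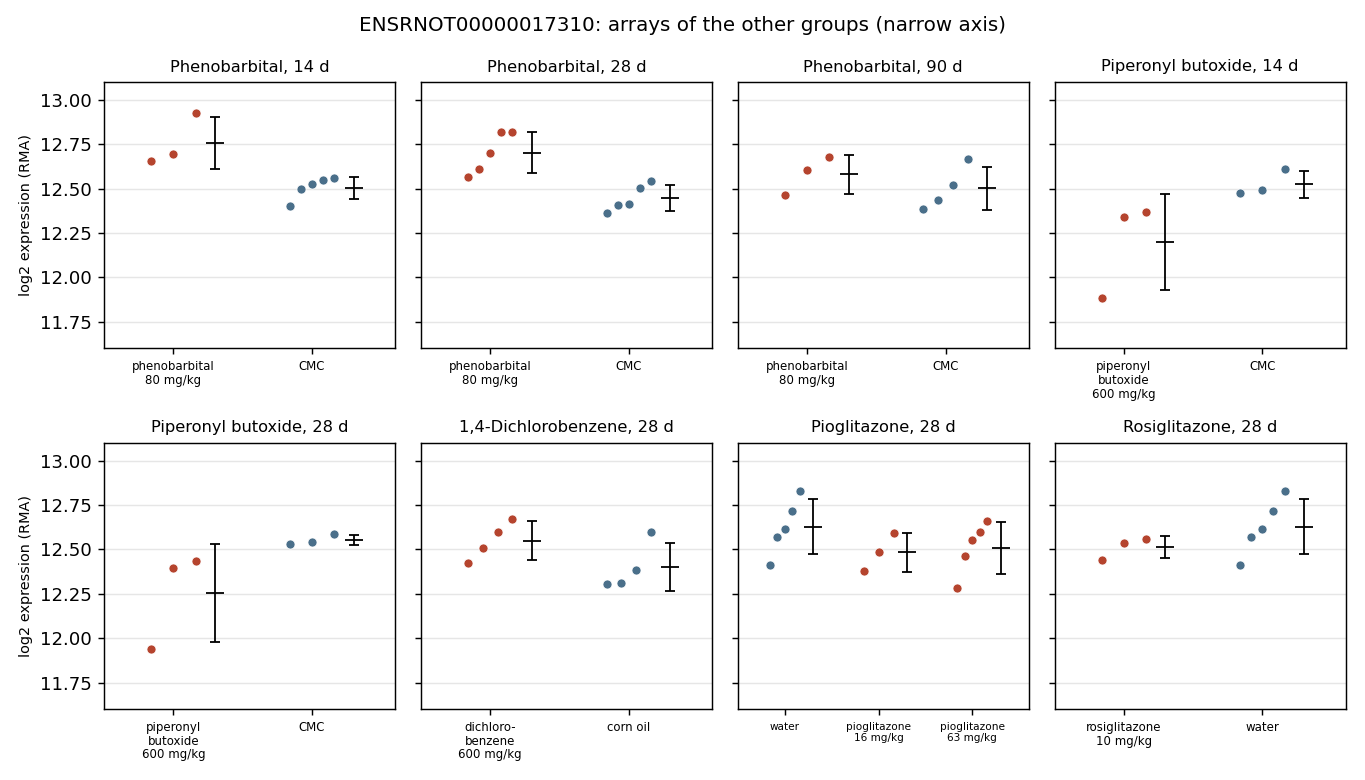
Log2 expression of ENSRNOT00000017310 on each array of the phenobarbital, piperonyl butoxide, 1,4-dichlorobenzene, pioglitazone and rosiglitazone groups (red) and their controls (blue; CMC is carboxymethylcellulose), with mean and SD as black bars, on a narrow axis that does not start at 0. Phenobarbital arrays lie above their controls at 14 and 28 d, and piperonyl butoxide arrays below theirs.

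With 1,4-dichlorobenzene, an aromatic solvent and moth repellent, treated arrays were at 12.60, 12.67, 12.51 and 12.42, against 12.38, 12.60, 12.31 and 12.31 in corn oil controls. The groups overlapped, and the change of 0.15 (SE 0.32, 95% interval -0.48 to 0.78) did not pass (limma adjusted p = 0.873), where 5.96% of transcripts did. Water controls of the thiazolidinediones were at 12.41, 12.62, 12.72, 12.83 and 12.57, pioglitazone at 16 mg/kg at 12.38, 12.60 and 12.48, and at 63 mg/kg at 12.55, 12.60, 12.46, 12.66 and 12.28. Rosiglitazone at 10 mg/kg gave 12.44, 12.54 and 12.56. All 3 treated groups overlapped the controls. Their log2 changes were -0.14 (SE 0.33, 95% interval -0.80 to 0.51), -0.12 (SE 0.28, -0.68 to 0.45) and -0.12 (SE 0.33, -0.77 to 0.54), with limma adjusted p = 0.943, 0.884 and 0.949. Of all transcripts, 0.049%, 2.41% and 0.681% passed in these comparisons. The 2 pioglitazone doses differed by 0.03 (SE 0.33, 95% interval -0.63 to 0.68, limma adjusted p = 0.989), where 0.0134% passed. Both drugs carry a thiazolidinedione ring. Their doses differ, so no comparison between them was made.

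Controls varied little with time or vehicle. Carboxymethylcellulose controls of set A averaged 12.51 ± 0.06 at 14 d (SD, n = 5), 12.45 ± 0.07 at 28 d (n = 5) and 12.50 ± 0.12 at 90 d (n = 4). Differences between these days ran from -0.06 to 0.06 (SE 0.28 to 0.30, limma adjusted p = 0.968 to 0.997), where 0.169% (28 minus 14 d), 0.352% (90 minus 28 d) and 2.83% (90 minus 14 d) of transcripts passed. At 28 d, corn oil controls of set B averaged 12.40 ± 0.14 (n = 4) and carboxymethylcellulose controls 12.58 ± 0.06 (n = 5). That difference was -0.18 (SE 0.30, 95% interval -0.77 to 0.42, limma adjusted p = 0.866; exact permutation p = 0.0635), and 0.583% of transcripts passed.

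Among the 22469 other transcripts, ENSRNOT00000051289 had the most similar pattern, with Pearson r = 0.99 over the 29 group means. ENSRNOT00000014661 had the most opposite one, with r = -0.93. These correlations are a description: the groups share controls, and the points fall into separate clusters. Without the F groups and 100 mg/kg methapyrilene, over 24 groups, r was 0.76 for the first, which then took place 39, and 0.28 for the second. By Spearman rho over the 29 groups the values were 0.72 and -0.27. In all 29 groups, 14 transcripts had r above 0.9 and 3 had r below -0.9. Over the 23 groups that neither chose the transcript nor served as controls in that choice, 20 had r above 0.9 and 14 had r below -0.9. There ENSRNOT00000051289 took place 2 (r = 0.99) and ENSRNOT00000014661 place 3 from the lowest (r = -0.95). These places are no separate check. Both transcripts were picked over the 29 groups, which include these 23, and the 23 keep the F groups.

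ENSRNOT00000051289 had log2 levels of 3.72, 3.51 and 3.30 at 100 mg/kg methapyrilene, against a mean of 9.71 ± 0.08 (SD, n = 3) in the controls. In the F controls it averaged 2.76 at 14 d, against 9.61 in the corn oil controls without the letter, and 2.80 at 28 d, against 9.76 (n = 4 each). It changed by -1.17 under cyproterone acetate in M after 14 d and -1.01 after 28 d, -1.26 with Wy-14643 and -1.70 with methapyrilene 30 mg/kg at 28 d. In the same 4 comparisons ENSRNOT00000017310 changed by -3.02, -1.70, -2.51 and -1.11. In the 5 Wy-14643 arrays ENSRNOT00000051289 stood at 8.65, 8.76, 8.62, 8.66 and 8.64, an SD of 0.05, where ENSRNOT00000017310 ranged from 8.31 to 11.32. Its deviations from the group means correlated with those of ENSRNOT00000017310 at r = 0.41 over 112 arrays, and at r = 0.66 over the 92 arrays of the groups with an SD under 0.5. Over the 112 arrays this r ran from -0.54 to 0.58 among all transcripts, so 0.41 was not the highest. The 92 arrays were picked by the spread of ENSRNOT00000017310 itself. No range among all transcripts was computed for them, so 0.66 cannot be placed.

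ENSRNOT00000014661 was at 6.31, 6.11 and 6.57 at 100 mg/kg methapyrilene, against 4.61 ± 0.32 (SD, n = 3) in controls. Its mean in F controls was 5.58 at 14 d, against 4.46 in controls without the letter, and 5.97 at 28 d, against 4.76. With Wy-14643 it changed by -0.07 and with cyproterone acetate in M by -0.02 at 14 d and -0.26 at 28 d. It was high where ENSRNOT00000017310 was at or below 5.27, and did not follow the intermediate falls. Its deviations from the group means correlated with those of ENSRNOT00000017310 at r = 0.09 over 112 arrays and -0.02 over the 92.

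**Figure D4:**
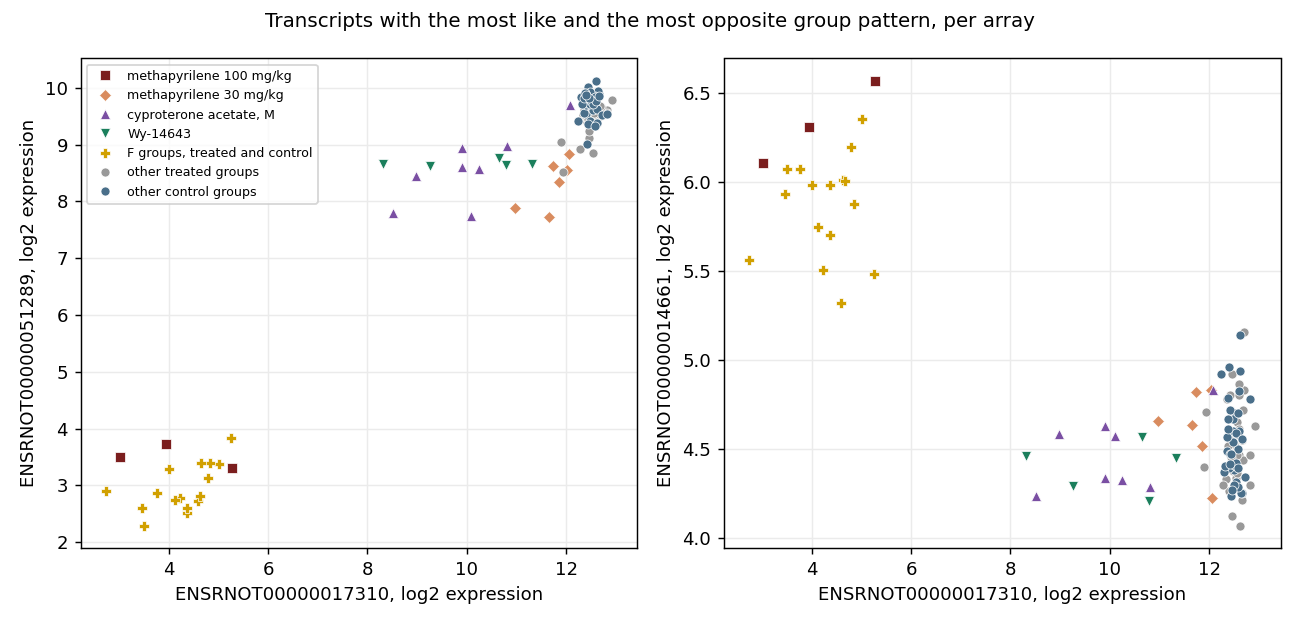
Log2 expression of ENSRNOT00000051289 (left) and ENSRNOT00000014661 (right) against that of ENSRNOT00000017310, 1 point for each of the 112 arrays, marked by compound or group. On the left, the Wy-14643 points form a flat line between 8.62 and 8.76, and the F groups and 100 mg/kg methapyrilene form a separate cluster in both panels.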

How the data were processed

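The deposited series table holds log2 values of 23110 probe sets per array. Per the submitters' processing notes, RMA and affy made them, with versions not given in the sources used here, and whether all arrays were normalized together is not stated. Columns were matched to samples by accession and groups were taken from the labels. The 11 arrays marked as not of good quality were left out, 1 of them a technical repeat. A linear model with 1 mean for each of 29 groups was fitted to 22470 distinct transcripts with limma 3.58.1 in R 4.3.3 (83 residual and 4.23 prior degrees of freedom), and p-values were adjusted by Benjamini-Hochberg over all transcripts of a comparison. A call is an adjusted p under 0.05. Exact permutation tests were two-sided and adjusted within a family. Of 37 comparisons, 24 were tested (12 of a treatment, 6 of controls, 6 differences), and 13 that touch the choice of the transcript were only described.

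The number of arrays limits the precision. Exact permutation tests and fits on only the groups compared are alternatives chosen after seeing the data. The named transcripts are the one described and those most and least like it by Pearson r over group means. The transcript, its comparisons and these rules were chosen with earlier results of these data known. Planned gene lists and cell type markers were not run, since no identifier could be paired with a symbol.

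Alternatives were every array whatever its quality label (the repeat averaged into its sample), only the same control set, median centring, quantile normalization, no dimmest 40% of transcripts, trend and robust variances, identical rows kept, replicate numbers as a block, and leaving out each array. Same-numbered arrays did not deviate together: their correlations ran from -0.11 to 0.08, and in 0 of 17 comparisons did every pair exceed 0.1.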

Additional observations from a re-analysis of the deposited data

Results flagged for a closer look

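Cyproterone acetate arrays lay on opposite sides of their controls in the F and M groups. Every treated F array lay above the mean of its controls and every treated M array below. The log2 change in F minus that in M was 4.21 at 14 d and 2.40 at 28 d (SE 0.45 each). Of the F changes themselves, that at 28 d (0.70) did not pass in the main fit (limma adjusted p = 0.139) but passed with only the groups compared. That at 14 d (1.18, limma adjusted p = 0.00492) did not pass without control replicate 4 (0.0867), with only the groups compared (0.0611) or by the exact permutation test (0.0686). Before adjustment the exact permutation test gave p = 0.0286 on each day, the smallest that 4 against 4 allows. The difference between F and M was not tested, since the M groups entered the choice of the transcript. The F controls stood at 3.75 and 3.85, against 12.44 and 12.42 in controls without the letter. F arrays had the transcript at the 8.9 to 47.7 percentile, where signal over background was not determined. Whether a fall like that in M could be seen from such a level was not tested.

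Arrays marked as not of good quality took no part in the comparisons. Of these, 4 lay above every good-quality array of their control group: 1,4-dichlorobenzene replicate 4 at 12.71 against at most 12.60 in corn oil, phenobarbital at 14 d replicates 2 and 4 at 12.88 and 12.75 against at most 12.56, and phenobarbital at 90 d replicate 3 at 12.71 against at most 12.67. In the same phenobarbital group at 90 d, replicate 1 at 12.38 lay below every good-quality control array, the lowest of which was at 12.39. A search for single arrays far from the rest of their group covered 18 groups and found 0, where chance gives about 1 in 20.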

How the results depend on the processing

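Of 713 values recomputed under alternatives, 696 kept their direction and side of the threshold or stayed within the spread, 12 lost the call, 2 gained it, 3 moved and 0 reversed. The fall with methapyrilene 30 mg/kg at 28 d (-1.11) was not called in the fit of its control set alone (limma adjusted p = 0.0823), of the groups compared alone (0.113) or by the exact permutation test (0.171). Leaving out 1 array gave -1.25 to -0.86 (adjusted p = 0.0297 to 0.268). The rise with cyproterone acetate in F at 14 d (1.18) was not called with the groups compared alone (0.0611) or by the exact permutation test (0.0686), and leaving out 1 array gave 0.85 to 1.46 (0.001 to 0.0867). That at 28 d (0.70) was called with the groups compared alone (0.0208), and phenobarbital at 28 d (0.26) by the exact permutation test (0.0476). F controls minus corn oil controls of set B (-8.55) gave 0.171 by that test, whose design limits p. The change of methapyrilene 30 mg/kg at 28 d minus that at 14 d ran from -0.70 to -0.32 with 1 array left out. Transcripts with r above 0.9 numbered 0 by Spearman rho and 1 without the F groups and 100 mg/kg methapyrilene, and 20 over the 23 groups outside the choice, against 14. Wy-14643 stayed called, at -2.51 to -2.48 under the other scalings, filters and variance models and -2.82 to -2.07 with 1 array left out. Its limma adjusted p was 7.25e-05 with its control set alone and 0.0021 with the groups compared alone. Replicate numbers did not pair the arrays. With the replicate block the Wy-14643 change was -2.51 (limma adjusted p = 6.86e-12), methapyrilene 30 mg/kg at 28 d gave adjusted p = 0.0424, and the block changed no call. The share of all transcripts called moved by over 1.5 times in several comparisons, for methapyrilene 30 mg/kg at 28 d 3.67% to 16.3%, piperonyl butoxide at 28 d 3.89% to 20.1%, phenobarbital at 14 d 0.378% to 4.83% and Wy-14643 22.9% to 40.2%. The upper ends for methapyrilene, piperonyl butoxide and Wy-14643 came without the dimmest 40%, with 13482 transcripts in place of 22470. The counts called there were 2193, 2709 and 5415, against 2120, 2390 and 5466 in the main fit. For phenobarbital the upper end used every array whatever its quality label (1085 of 22470, against 323). All 4 lower ends came from fits of the control set alone. Why the counts differed between fits was not tested. The files give no signal over background, so the order of values near the lower end is uncertain.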

Other observations

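The other arrays marked as not of good quality were compared with the range of the good-quality arrays of their own group. Carboxymethylcellulose at 14 d had a technical repeat of replicate 3 at 12.54, against 12.55 in the array it repeats, and corn oil of set B had an array at 12.48, both within the range of their group. The arrays of pioglitazone 16 mg/kg at 12.67 and of rosiglitazone at 12.63 and 12.76 lay above their groups, which reached 12.60 and 12.56. Those of phenobarbital at 90 d at 12.38 and of carboxymethylcellulose at 90 d at 12.36 lay below theirs, whose lowest arrays were at 12.46 and 12.39.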
